A study of Mus musculus with 8 samples.

Results

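The 10 genes described here encode the machinery with which antigen-presenting cells show peptides to CD4 T cells and costimulate them: H2-Aa, H2-Ab1, H2-Eb1, H2-DMa, H2-DMb1, H2-Oa, Cd74, Ciita, Cd80 and Cd86. They were chosen by family and role from the symbols in a table of 55421 genes, with earlier vehicle against doxorubicin differences in these same libraries known. Their group differences are therefore given as a description. All 10 had a row in the table, and all 10 passed the filter on low counts, as did 17035 genes in all. The libraries were polyadenylated RNA of tibiae and femurs from wildtype male C57BL/6 mice, 15 weeks old when treated, whose marrow had been spun out and whose bone ends had been cut off. The 4 vehicle mice received saline on day 0, the 4 doxorubicin mice 10 mg/kg doxorubicin, a chemotherapy drug, by the same intraperitoneal route, and both groups were killed on day 30. Each library pooled the hindlimb long bones of 1 mouse, so the spread is that between mice. The series relates this model of chemotherapy-induced senescence to complement, osteoclast precursors and bone loss.

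MHC class II molecules are pairs of an alpha and a beta chain that bind peptides from endocytosed proteins. The invariant chain, encoded by Cd74, escorts new pairs and fills their groove until H2-DM exchanges its remnant for a peptide, and H2-DO, of which H2-Oa is the alpha chain, restrains H2-DM. Ciita is the transactivator that switches these genes on, bound to factors at their promoters. Cd80 and Cd86 are the B7 ligands of the T cell receptors CD28 and CTLA4. In marrow and bone the class II genes are expressed mainly by B cells, dendritic cells and some macrophages. The C57BL/6 strain makes the I-A molecule from H2-Aa and H2-Ab1. It carries a defective H2-Ea gene, so the H2-Eb1 chain lacks its usual partner.

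The 6 H2 genes lay within 224 kb of chromosome 17 (GRCm38, GENCODE M21), from H2-Oa at chr17:34092340-34095234 to H2-Eb1 at chr17:34305867-34316674. Between them lay H2-DMa at chr17:34119541-34139101, H2-DMb1 at chr17:34153072-34160230, H2-Ab1 at chr17:34257689-34269419 and, on the minus strand, H2-Aa at chr17:34282744-34287823. Class II promoters are known for an X box and a Y box at a set distance, where the factors that hold Ciita bind. The RefSeq promoter table (GRCm38.p6) had entries for H2-Aa, H2-Eb1, H2-DMa, H2-DMb1, H2-Oa and Cd80, and none for H2-Ab1, Cd74, Ciita or Cd86. The 250 bases before each start were searched on both strands for an X core, ACNGATG, followed after 20 to 45 bases, start to start, by a Y core, ATTGG. The pair stood in 0.18% of the 32851 promoters in the table. It was present in 2 of the 6 genes with an entry, H2-Eb1, with 29 bases from start to start, and H2-DMb1, with 30 bases. A longer Y core, TGATTGG, which contains the first, was chosen after the sequences were seen. It was present in 4 of the 6, H2-Aa, H2-Eb1, H2-DMb1 and H2-Oa, beginning 50, 61, 63 and 45 bases before the starts that RefSeq gives, and in 7.23% of all promoters on either strand. An X core stood elsewhere in the entries of H2-Aa and H2-Oa, outside the set distance. The RefSeq and GENCODE starts differ: the H2-DMb1 stretch printed here lies after the GENCODE start of that gene, the H2-Oa stretch crosses the GENCODE start, and both overlap a GENCODE exon. Neither entry of H2-DMa held it, and nor did that of Cd80. These are matches of letters and not measured binding. The search took exact letters only, so an X box that departs from ACNGATG would be missed. The sequences below are shown because they set the complete pair beside promoters whose Y core had no exact X core match at that distance. Each reads 5′ to 3′ on the gene's strand, and capitals mark the matched cores.
H2-Eb1, chr17:34305750-34305824, plus strand: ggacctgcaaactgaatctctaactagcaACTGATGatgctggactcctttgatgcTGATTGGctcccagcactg
H2-Aa, chr17:34287855-34287929, minus strand: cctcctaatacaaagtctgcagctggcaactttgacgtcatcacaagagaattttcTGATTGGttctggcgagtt
H2-DMb1, chr17:34153111-34153140, plus strand, Y core only shown: taggctgattcactcagTGATTGGtctgac
H2-Oa, chr17:34092317-34092346, plus strand: atctcagagaactgctcTGATTGGctgctt
H2-DMb2, a near copy of H2-DMb1, chr17:34145101-34145175, plus strand: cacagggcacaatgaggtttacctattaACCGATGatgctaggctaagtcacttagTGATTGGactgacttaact

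The libraries held between 23699525 and 35747083 counts. Mitochondrially encoded genes took between 14.3% and 23.9% of them, and haemoglobin genes between 1.27% and 3.57%. Bone was present, with the summed level of 10 osteoblast and osteocyte markers between 4536 and 16780 CPM (each gene's share of its library's counts, scaled up and corrected between libraries by TMM) in the 8 libraries. Marrow cell markers were detected too: 10 neutrophil markers summed to between 10530 and 23260 CPM and 18 B lymphoid markers to between 344 and 541 CPM. The 10 class II and costimulatory genes took between 0.0465% and 0.0803% of all counts. Their counts ran from 50, for H2-Oa, to 9912, for H2-Aa.

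Per kilobase of merged exons, the invariant chain was the most abundant of the 10. Cd74 averaged 108 ± 16.3 CPM per kb over the mice (SD, n = 8) and was above H2-Aa, next in order, in 8 of 8 libraries. H2-Aa averaged 51.0 ± 10.0 and H2-Eb1 49.0 ± 8.22 CPM per kb (SD, n = 8 each). These neighbours did not differ beyond their spread, with H2-Aa above H2-Eb1 in 5 of 8 libraries. H2-Ab1 stood at 30.1 ± 5.33 CPM per kb (SD, n = 8), below H2-Eb1 in 8 of 8. The editors of the peptide load were lower: H2-DMb1 averaged 13.1 ± 2.12, H2-DMa 4.49 ± 0.641 and H2-Oa 2.37 ± 0.556 CPM per kb (SD, n = 8 each). Cd86 averaged 3.56 ± 0.792, Cd80 1.69 ± 0.679 and Ciita 1.44 ± 0.269 CPM per kb (SD, n = 8 each). Cd80 was above Ciita in 4 of 8 libraries, so the bottom of the order was not resolved. The length used mattered for H2-Ab1, whose level per kilobase of its longest transcript was 63.8, beside 60.2 for H2-Aa and 57.1 for H2-Eb1. With that length 5 of the 10 genes kept their place. Cd74 was still first at 128, and the chains of the class II molecules were still above H2-DMb1 at 15.7. The plot of levels per length shows both measures.

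**Figure D1:**
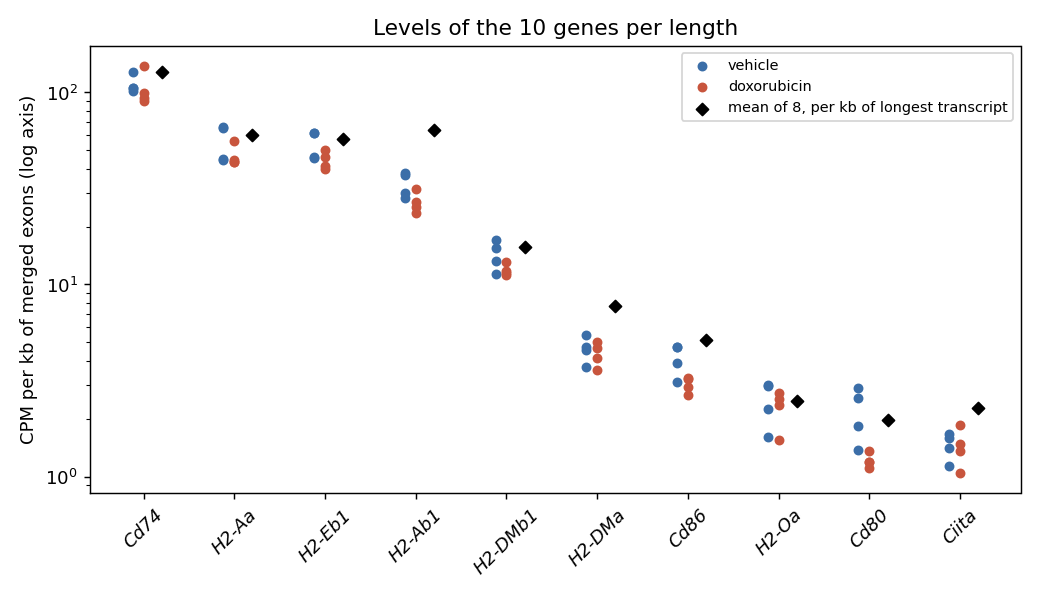
Levels of the 10 genes per length, on a log axis of CPM per kb of merged exons. Dots are single mice by group, and black diamonds are the mean of 8 mice per kb of the longest transcript; Cd74 is highest, the 3 class II chain genes follow, and Ciita, Cd80 and H2-Oa are lowest.

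All 10 genes had a fitted log2 difference below 0 between doxorubicin and vehicle bones, where 42.8% of all tested genes did. The median of the 10 was -0.25, against 0.04 over all tested genes. That count was 9 of 10 without vehicle 3 and 8 of 10 without doxorubicin 4. None of the 10 passed the threshold, an adjusted p of 0.05 in edgeR's quasi-likelihood test over all genes, where 0% of the 17035 genes passed. The adjusted p of the 10 lay between 0.811 and 0.979. DESeq2 called 29 genes of the same 17035, and 0 of the 10. At an unadjusted p under 0.05, 3 of the 10 were lower (Cd80, Cd86 and H2-Ab1) and 0 were higher, against 3.23% and 2.13% of all tested genes. In 1 of the 10, Cd80, every doxorubicin library lay below every vehicle library, as in 1.95% of all tested genes, and 0 of the 10 lay wholly above, as in 1.64%. The genes share cells and libraries, so the 10 differences are not separate observations, and in bulk RNA fewer cells of a type and less RNA per cell cannot be told apart. The individual values follow, by role, and the plot of values by mouse shows them.

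**Figure D2:**
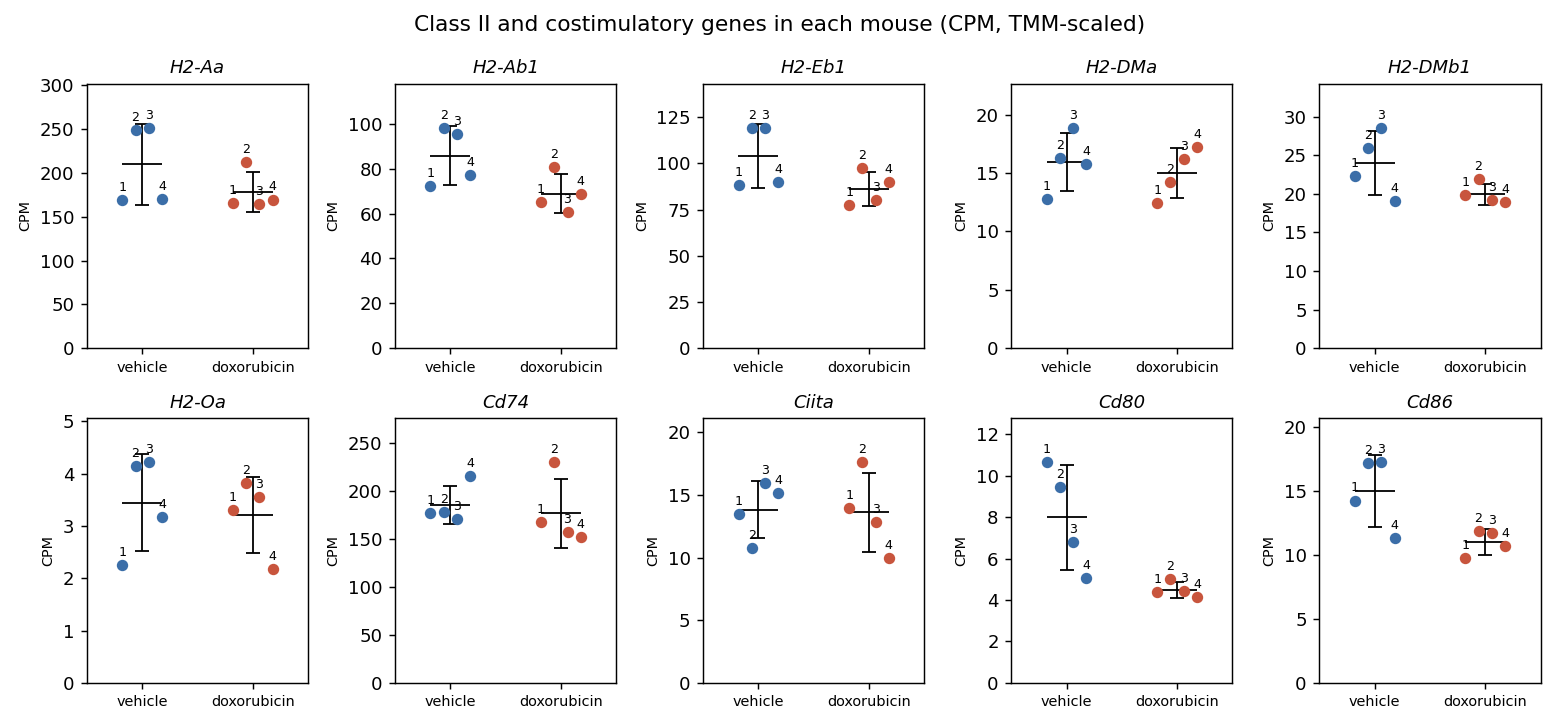
CPM of each gene in each mouse, with the mouse number beside each point; the horizontal bar is the group mean and the error bar the SD (n = 4 mice a group). The groups are apart for Cd80 and overlap for the other 9 genes, and vehicle 2 and 3 are the highest mice for H2-Aa, H2-Ab1 and H2-Eb1.

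The classical chains were highest in vehicle mice 2 and 3. H2-Aa, the alpha chain of I-A, measured 169, 249, 252 and 170 CPM in vehicle 1 to 4 and 165, 212, 165 and 170 CPM in doxorubicin 1 to 4. The groups overlapped, since vehicle 1 and 4 were close to 3 of the doxorubicin mice. It averaged 210 ± 46.7 CPM in vehicle and 178 ± 22.9 CPM in doxorubicin mice (SD, n = 4 each). The fitted log2 difference, -0.24 ± 0.17 (SE), ran from -0.36 once doxorubicin 2 was left out to -0.16 once vehicle 2 was. H2-Ab1, the beta chain of I-A, measured 72.2, 98.3, 95.5 and 77.4 CPM in vehicle and 65.2, 80.9, 60.5 and 68.8 CPM in doxorubicin bones. Here 3 of the 4 doxorubicin mice lay below the lowest vehicle mouse, and doxorubicin 2 lay within the vehicle range. The means were 85.8 ± 12.99 CPM in vehicle and 68.9 ± 8.69 CPM in doxorubicin mice (SD, n = 4 each), and the fitted log2 difference was -0.32 ± 0.14 (SE). H2-Eb1, the beta chain of I-E, measured 88.5, 119, 119 and 89.9 CPM in vehicle and 77.7, 97.5, 80.2 and 89.8 CPM in doxorubicin bones. Vehicle 2 and 3 were again highest, doxorubicin 2 and 4 lay within the vehicle range, and the log2 difference was -0.27 ± 0.14 (SE). The pseudogene of its partner, H2-Ea-ps, had 1 count in vehicle 2 and 0 in the 7 others, and was not tested.

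The invariant chain gave another pattern of mice. Cd74 measured 177, 178, 171 and 215 CPM in vehicle and 168, 230, 158 and 152 CPM in doxorubicin bones. Doxorubicin 2 was the highest of the 8 mice and vehicle 4 the next, while the other 3 doxorubicin mice lay below the vehicle range. The means were 185 ± 20.2 CPM in vehicle and 177 ± 35.9 CPM in doxorubicin mice (SD, n = 4 each). The fitted log2 difference, -0.07 ± 0.15 (SE), ran from -0.25 without doxorubicin 2 to -0.0018 without doxorubicin 4. Ciita, the transactivator, measured 13.5, 10.8, 16.0 and 15.2 CPM in vehicle and 14.0, 17.6, 12.9 and 9.94 CPM in doxorubicin bones. The groups covered nearly the same range. Its log2 difference was -0.02 ± 0.19 (SE) and crossed 0 with the mice used, from -0.20 without doxorubicin 2 to 0.10 without doxorubicin 4.

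Among the genes of peptide exchange, H2-DMb1, the beta chain of H2-DM, measured 22.3, 25.9, 28.6 and 19.1 CPM in vehicle and 19.9, 21.9, 19.2 and 18.9 CPM in doxorubicin bones. The doxorubicin mice were close together, at 20.0 ± 1.35 CPM, at the lower end of a vehicle range of 24.0 ± 4.14 CPM (SD, n = 4 each). The log2 difference was -0.26 ± 0.14 (SE). Its near copy H2-DMb2, with which it may share reads, stood at 13.2 ± 0.626 and 11.7 ± 2.71 CPM (SD, n = 4 each). H2-DMa, the alpha chain, measured 12.8, 16.3, 18.9 and 15.8 CPM in vehicle and 12.4, 14.2, 16.2 and 17.2 CPM in doxorubicin bones. The groups overlapped almost wholly, with a log2 difference of -0.09 ± 0.15 (SE), which ran from -0.18 without vehicle 1 to -0.03 without doxorubicin 1. H2-Oa, the alpha chain of H2-DO, measured 2.25, 4.15, 4.22 and 3.17 CPM in vehicle and 3.31, 3.82, 3.56 and 2.17 CPM in doxorubicin bones. The low mice, vehicle 1 and doxorubicin 4, were in different groups. Its log2 difference of -0.10 ± 0.25 (SE) was 0.05 without doxorubicin 4 and -0.25 without vehicle 1. Its partner H2-Ob, named after its values were seen, stood at 28.5 ± 3.84 and 24.8 ± 5.81 CPM (SD, n = 4 each).

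The B7 ligands had the most negative log2 differences of the 10. Both lie on chromosome 16 (GRCm38), Cd80 at chr16:38455561-38496335 on the plus strand and Cd86 at chr16:36603869-36666081 on the minus strand, as does Ciita at chr16:10480059-10528418. Cd80, the ligand that activated antigen-presenting cells raise, measured 10.6, 9.47, 6.80 and 5.06 CPM in vehicle and 4.39, 5.02, 4.41 and 4.13 CPM in doxorubicin bones. Every doxorubicin mouse lay below every vehicle mouse, though vehicle 4 and doxorubicin 2 were almost level. The vehicle mice were spread at 7.995 ± 2.53 CPM and the doxorubicin mice close together at 4.49 ± 0.377 CPM (SD, n = 4 each). The log2 difference was -0.83 ± 0.22 (SE), and between -1.03 without vehicle 4 and -0.66 without vehicle 1 when single mice were left out. Cd86, which resting antigen-presenting cells also carry, measured 14.3, 17.2, 17.3 and 11.3 CPM in vehicle and 9.79, 11.9, 11.7 and 10.7 CPM in doxorubicin bones. Vehicle 4 lay within the doxorubicin range, and the other vehicle mice lay above it. The means were 15.0 ± 2.84 CPM in vehicle and 11.0 ± 0.978 CPM in doxorubicin mice (SD, n = 4 each), and the fitted log2 difference was -0.44 ± 0.15 (SE). The ratio of Cd86 to Cd80 in CPM was 1.98 ± 0.519 in vehicle and 2.46 ± 0.200 in doxorubicin bones (SD, n = 4 each). In vehicle 1, the mouse with the most Cd80, it was 1.34, and in the 7 others it lay between 1.82 and 2.66.

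Members of the wider pathway did not share 1 direction. Of 17 tested genes of class II processing and regulation outside the 10, 6 lay above and 11 below 0, with a median log2 difference of -0.10, and 0 passed the threshold. The lysosomal protease Ctss, which trims the invariant chain, stood at 209 ± 49.8 and 196 ± 22.2 CPM. The related Ctsl stood at 132 ± 24.3 and 133 ± 12.01 CPM, and Creb1, a factor that binds class II promoters, at 107 ± 17.97 and 91.1 ± 5.21 CPM (SD, n = 4 each). The subunits of the RFX complex, which binds the X box, had log2 differences of 0.16 ± 0.12 for Rfx5, 0.13 ± 0.13 for Rfxap and 0.13 ± 0.11 for Rfxank (SE). Cd83, a surface protein of mature dendritic cells that slows the loss of class II and CD86 from the surface, averaged 19.3 ± 2.04 CPM in vehicle and 13.3 ± 2.14 CPM in doxorubicin mice (SD, n = 4 each), with groups that did not overlap and a log2 difference of -0.53 ± 0.14 (SE). The RFX genes and Cd83 were named after their values were seen.

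Of 17 other costimulatory ligands and receptors, 11 passed the filter. Among them 4 lay above and 7 below 0, with a median of -0.21, and 0 passed the threshold. Icosl, the ligand of ICOS, had the highest CPM, between 15.6 and 16.5 in vehicle and between 15.7 and 18.6 in doxorubicin mice, followed by the PD-1 ligand gene Cd274 at 10.3 ± 1.77 and 9.37 ± 1.07 CPM and Cd276, a B7 homologue, at 8.88 ± 2.38 and 10.3 ± 2.87 CPM (SD, n = 4 each). The groups overlapped for each of these. Cd28, a receptor of Cd80 and Cd86, averaged 3.78 ± 0.702 CPM in vehicle and 3.15 ± 0.789 CPM in doxorubicin mice (SD, n = 4 each); this gene was chosen after its values were seen. Class I presentation, a separate route to CD8 T cells, lay on the other side of 0, with 9 of 9 genes above it, a median of 0.08 and 0 past the threshold. Of 13 tested genes of the interferon gamma axis, which induces Ciita, 8 lay above and 5 below 0, with a median of 0.03. Ifng itself had between 2 and 10 counts in a library and was not tested. The plot of fitted differences sets the 10 genes beside both related lists.

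**Figure D3:**
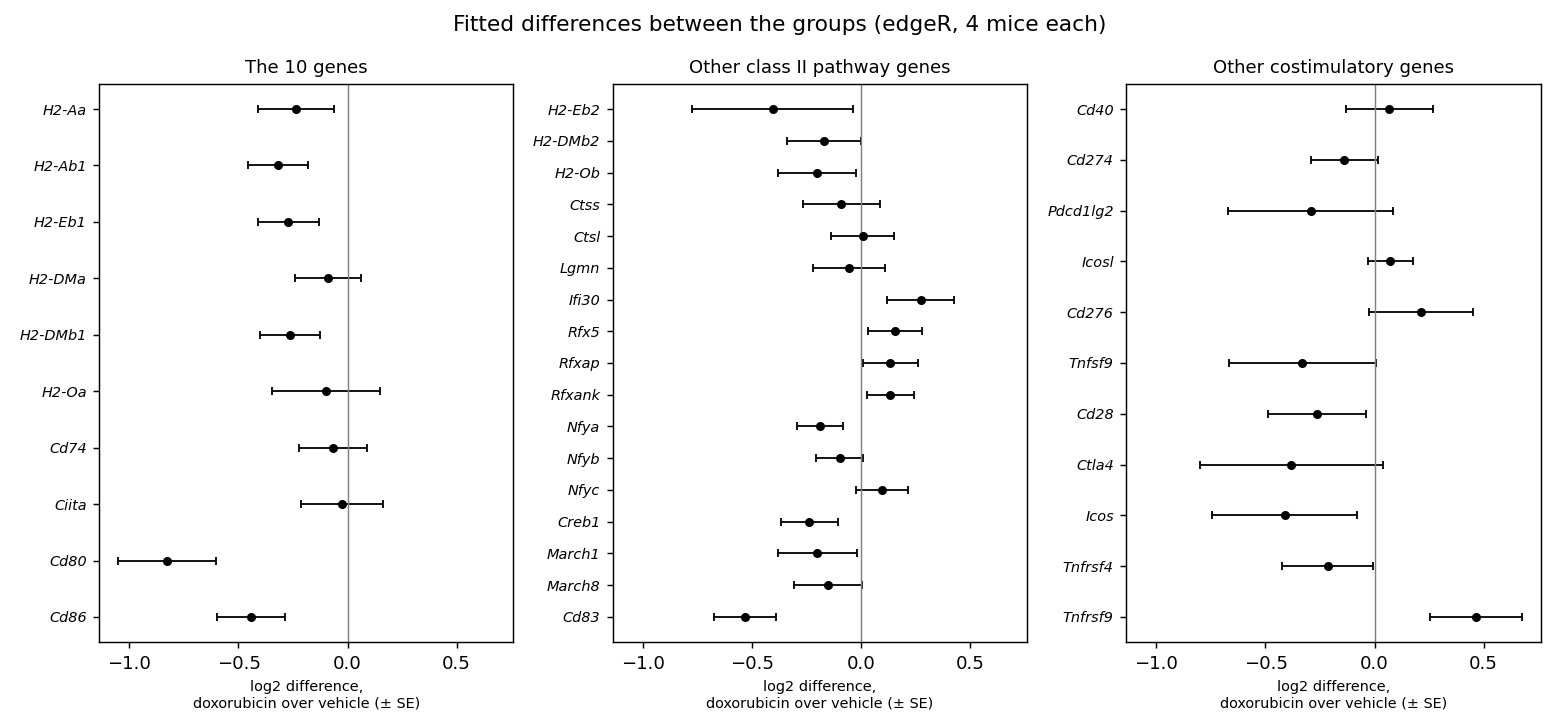
Fitted log2 differences of doxorubicin over vehicle with their SE (edgeR, 4 mice a group) for the 10 genes, the other class II pathway genes and the other costimulatory genes. The 10 genes lie below 0, Cd80 farthest at -0.83, while 6 of 17 and 4 of 11 genes of the other lists lie above 0.

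Markers of the other cell types the bones could hold were compared in the same way, and none passed the threshold. Of 12 tested conventional dendritic cell markers, 9 lay below 0, and their summed level was 119 to 135 CPM in vehicle and 95.7 to 118 CPM in doxorubicin bones, without overlap. In summed CPM that gap rested on Clec9a, a receptor of cross-presenting dendritic cells. Clec9a measured 22.4, 34.7, 24.4 and 18.6 CPM in vehicle and 12.8, 17.7, 10.8 and 13.9 CPM in doxorubicin bones. Leaving it out was chosen after its values were seen. The mean log2 CPM of the list, with Clec9a in it, also separated the groups and was not computed without this gene. The other 11 markers summed to between 96.7 and 107 CPM in vehicle and between 82.9 and 105 CPM in doxorubicin bones, which overlap. Sums are weighted toward markers with high CPM, so this overlap does not show that Clec9a alone was lower. Naaa, with the highest CPM of the list, was at 0.09 ± 0.18 (SE) in log2 difference, and 3 of the 12 lay above 0. Clec9a and Clec10a were lower at an unadjusted edgeR p under 0.05, and 0 of the 12 were higher. Clec10a was picked with its values in view. Its fitted difference was -0.43 ± 0.17 (SE), and its groups overlapped. Of 14 resident macrophage markers, 13 lay below 0, beside 42.8% of all tested genes. At an unadjusted edgeR p under 0.05, 5 were lower, beside 3.23% of all tested genes. Lower without overlap between the groups were 3, beside 1.95%. The 14 summed to between 555 and 907 CPM in vehicle and between 493 and 687 CPM in doxorubicin bones. Those with the highest CPM, Mrc1, C1qb and C1qc, had log2 differences of -0.43 ± 0.21, -0.26 ± 0.20 and -0.25 ± 0.20 (SE), and their groups overlapped. The scavenger receptor gene Cd163, named after its values were seen, averaged 27.2 ± 7.45 CPM in vehicle and 11.97 ± 3.62 CPM in doxorubicin mice (SD, n = 4 each). Of 10 T cell markers, 9 lay below 0 (summed 56.2 to 85.7 and 40.6 to 65.7 CPM). B lymphoid markers were divided, with 9 above and 9 below 0 and sums of 365 to 539 and 344 to 541 CPM. Of 8 monocyte markers, 6 lay above 0. Of 7 plasmacytoid dendritic markers, 4 lay below 0. None of these 6 lists held a marker at 0 in every library. Some lists of other cells and tissues lay wholly on 1 side. Above 0 were 8 of 8 skeletal muscle (median 0.39) and 7 of 7 osteoclast markers (0.41), and below 0 were 8 of 8 erythroid markers (-0.37). The rest were mixed. Above 0 were 8 of 10 osteoblast and osteocyte, 4 of 5 adipocyte, 5 of 10 neutrophil and 2 of 6 plasma cell markers. At an unadjusted edgeR p under 0.05, 2 plasma cell markers were lower, beside 3.23% of all tested genes. In the other direction, 2 osteoclast and 2 adipocyte markers were higher, beside 2.13%. Vehicle 3, one of the mice with the most H2-Aa, H2-Ab1 and H2-Eb1, stood apart in muscle, with a sum of 3610 CPM beside 11410 to 28850 CPM in the 7 others. Their part in the differences of the 10 genes was not tested.

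Between single mice the class II chain genes rose and fell together. Pearson r of log2 CPM over the 8 libraries was 0.93 for H2-Aa with H2-Ab1 (Spearman rho 0.95, exact permutation p = 0.000273 for r and 0.00114 for rho). It was 0.95 for H2-Aa with H2-Eb1 (rho 0.95, exact permutation p = 0.000223 and 0.00114). For H2-Ab1 with H2-Eb1 it was 0.97 (rho 0.95, exact permutation p = 0.000422 and 0.00114). Adjusted over all 45 pairs of the 10 genes, these exact permutation p were 0.00614, 0.00614 and 0.00632 for r and 0.0171 for each rho. With vehicle 2 and 3 left out, the mice farthest from the median, r was still 0.71, 0.76 and 0.88. After the group means were subtracted it was 0.95, 0.96 and 0.95. The ratio of H2-Eb1 to H2-Ab1 in CPM stayed between 1.16 and 1.32 in the 8 mice, although the level of each differed more between mice.

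Of the 45 pairs, 8 passed an adjusted exact permutation p of 0.05 for r, all with a positive r, and 3 passed for rho. The other 5 were H2-DMb1 with H2-Aa (0.91), H2-Ab1 (0.86), H2-Eb1 (0.88) and Cd86 (0.92), and Cd86 with H2-Eb1 (0.87). Their r was lower without vehicle 2 and 3, at 0.68 for H2-DMb1 with Cd86 and between 0.41 and 0.55 for the others. The count of 8 was 5 with group means subtracted. It was 12 without vehicle 1, 4 without doxorubicin 1 or 3, 3 without vehicle 2, 3 or 4 or doxorubicin 4, and 2 without doxorubicin 2, with fewer mice in each. Cd80 with Cd86 had an r of 0.81 (rho 0.81, exact permutation p = 0.0185 and 0.0218, adjusted 0.083 and 0.196), 0.87 without vehicle 2 and 3, and 0.55 with group means subtracted. Cd74 and Ciita were each in 0 of the pairs that passed. Cd74 had an r of 0.21 with H2-Aa (rho 0.52, exact permutation p = 0.632 and 0.197, adjusted 0.862 and 0.354), and 0.53 without vehicle 4 and doxorubicin 2. With H2-Ab1 its r was 0.36 (rho 0.67, exact permutation p = 0.384 and 0.0831, adjusted 0.618 and 0.288), and 0.63 without those mice. With H2-Eb1 its r was 0.18 (rho 0.55), and 0.50 without them. The ratio of Cd74 to H2-Ab1 in CPM ran from 1.79 in vehicle 3 to 2.84 in doxorubicin 2. Ciita had an r between -0.21 and 0.43 with each other gene but Cd74, with which it was 0.69 (rho 0.62, exact permutation p = 0.0552 and 0.115, adjusted 0.207 and 0.313), and 0.27 without doxorubicin 2 and 4.

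**Figure D4:**
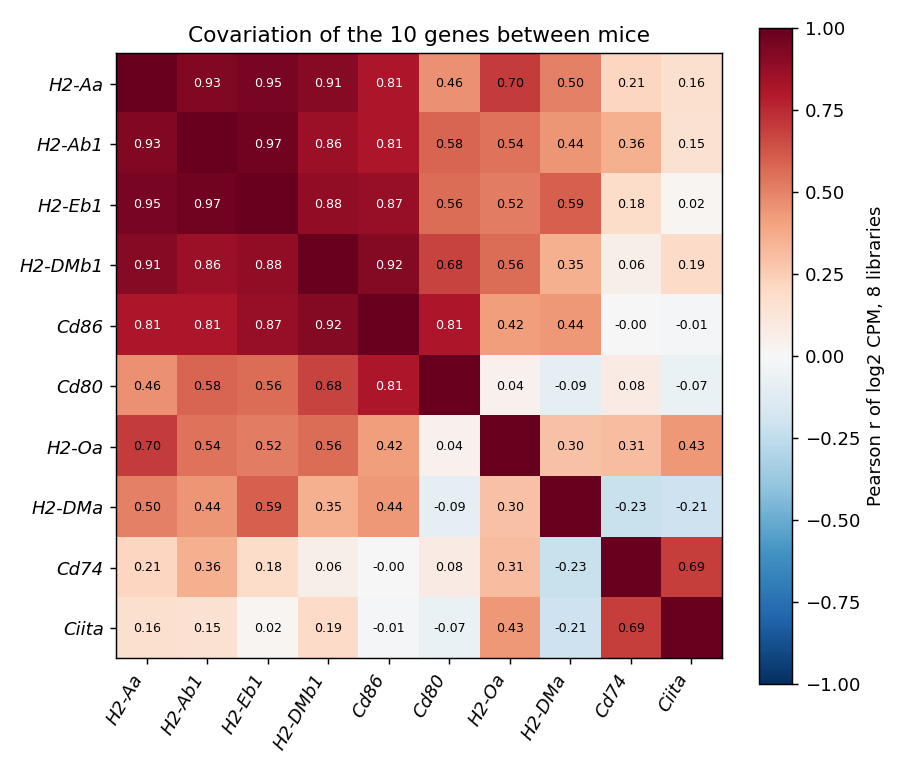
Pearson r of log2 CPM over the 8 libraries for each of the 45 pairs of the 10 genes, with colour from -1 (blue) to 1 (red). H2-Aa, H2-Ab1, H2-Eb1, H2-DMb1 and Cd86 form the block of high values at the upper left, and Cd74 and Ciita pair with each other at 0.69.

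Each gene was also set against 8 lists of cell markers, which gave 80 relations. At an adjusted exact permutation p of 0.05, 2 of them passed for r and 4 for rho. Ciita followed the mean log2 CPM of the 18 B lymphoid markers with an r of 0.94 (rho 0.93, exact permutation p = 0.000843 and 0.00223, adjusted 0.0337 and 0.0446). It followed the 8 mature B cell markers with an r of 0.92 (rho 0.93, exact permutation p = 0.000298 and 0.00223, adjusted 0.0238 and 0.0446). With the 8 pre-B markers r was 0.81 (rho 0.95, exact permutation p = 0.0138 and 0.00114, adjusted 0.276 and 0.0446). The lists share genes, so these are not separate relations. Without vehicle 3 and doxorubicin 4, the ends of the B cell range, the r of Ciita with these lists was 0.92, 0.90 and 0.81. With any 1 mouse left out it was at least 0.89, 0.90 and 0.70. With 7 mice, whichever was left out, 0 of the 80 relations passed for r. Cd74 had an r of 0.86 with the 7 plasmacytoid dendritic markers (rho 0.95, exact permutation p = 0.0031 and 0.00114, adjusted 0.0827 and 0.0446), and 0.93 without vehicle 4 and doxorubicin 4. The most abundant gene of that list, Cox6a2, is also a muscle gene, and with the 6 others alone the r of Cd74 was 0.47 (rho 0.52, exact permutation p = 0.232 and 0.197, adjusted 0.493 and 0.542), and 0.65 without vehicle 3 and doxorubicin 4. Leaving it out was chosen after its values were seen. The conventional dendritic score fell into separate ranges by group, 2.70 to 2.73 in vehicle and 2.33 to 2.59 in doxorubicin bones (mean log2 CPM), so no pooled r is given for it. The plot of pairs of measures shows these relations.

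**Figure D5:**
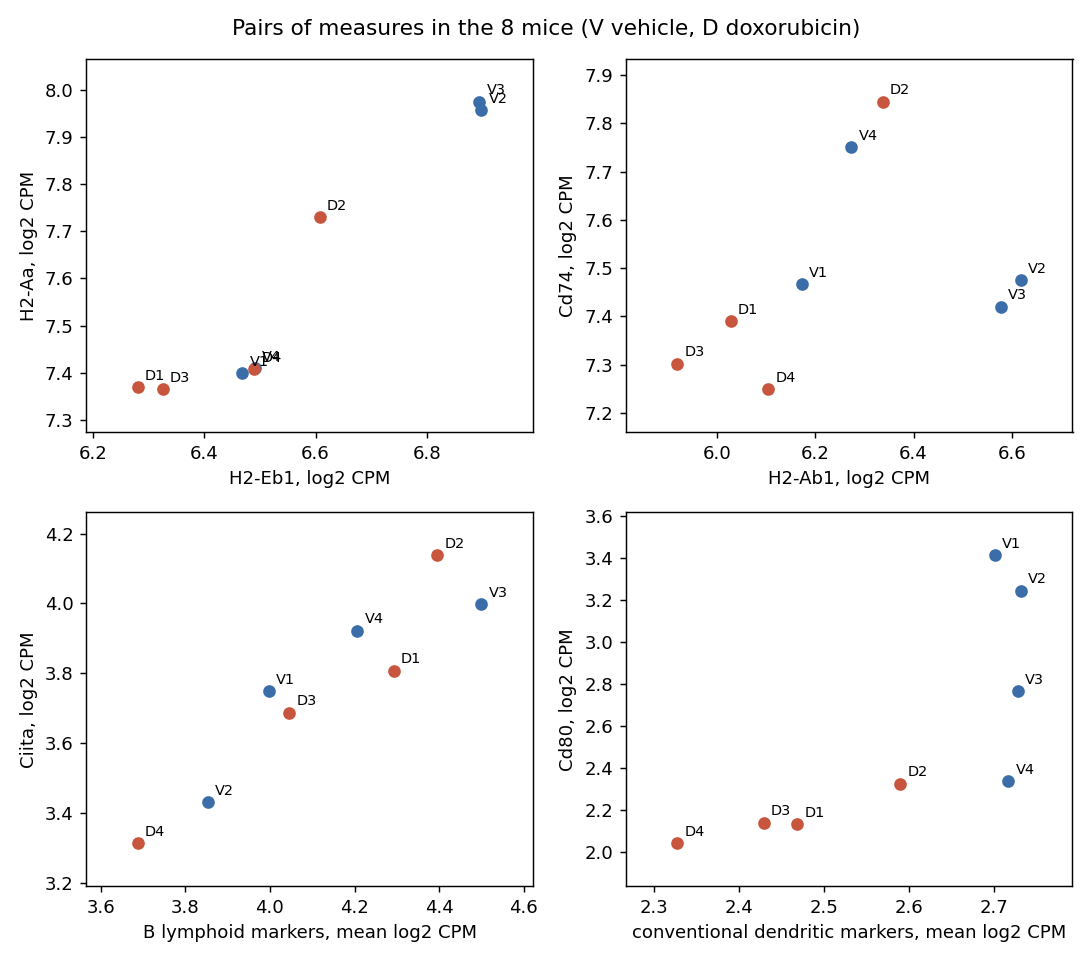
Values of the 8 mice on log2 scales, V for vehicle and D for doxorubicin. H2-Aa rises with H2-Eb1 (r = 0.95) and Ciita with the B lymphoid markers (r = 0.94). Cd74 is more spread against H2-Ab1 (r = 0.36, rho 0.67), and the conventional dendritic score, plotted against Cd80, separates the groups.

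Of 11553 other genes with a mean of at least 5 CPM, the most like the mean log2 CPM of H2-Aa, H2-Ab1, H2-Eb1 and Cd74 over the 8 libraries were Prkacb (r = 0.93), Kcna3 (0.93), Clec1b (0.93), Uba6 (0.92) and Gnaq (0.92). Next came Gucy1b1 (0.91), Gpm6a (0.91), Grem1 (0.91), Ighm (0.91) and Cd226 (0.91). These r are the highest of many and are a ranking only. No gene of the pathway and marker lists named here was among the first 10. The nearest were the conventional dendritic markers Clec10a (r = 0.87, rank 25) and Clec9a (0.85, rank 41). In the same list Itgax (-0.23), Fscn1 (-0.18), Snx22 (-0.08) and Naaa (-0.03) had a negative r. These r pool both groups, so they include any difference between the groups. The summed level of those 4 class II genes was highest in vehicle 2, at 644 CPM, and lowest in doxorubicin 3, at 463 CPM.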

How the data were processed

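RNA-seq of long bones from 8 mice was analysed, 4 in each group. The deposited values are estimated counts per gene, all whole numbers. The submitters' processing notes name STAR 2.5.3a, RSEM 1.3.0 and the genome build GRCh38, which is human although the identifiers are those of mouse genes. The kit was stranded and its adaptors carried molecular identifiers, per the labels' protocols. Whether counting used either, with which annotation, and how values became whole are details not given in the sources used here. All 10 identifiers matched GENCODE M21 (GRCm38) with their version, and lengths and positions came from it.

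Genes were kept by filterByExpr (minimum count 10, minimum total 15) and scaled by TMM. Groups were compared with edgeR 4.0.16 (robust quasi-likelihood, R 4.3.3, two-sided, Benjamini-Hochberg adjustment over all tested genes, threshold 0.05, no block), checked on simulated data. Alternatives used DESeq2 1.42.0, limma-voom (version 3.58.1), other scalings and filters, a replicate block, and each mouse left out. SE were derived from the F statistic. Correlations used log2 CPM (prior count 0.5) and exact permutation over all 40320 pairings, two-sided. Library totals ran from 23699525 to 35747083 counts. Reads are not taken as independent molecules. As a check for a library deposited more than once, each pair was compared over genes, and none agreed within counting noise (chi-square per degree of freedom between 26.2 and 264 over 28 pairs).

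The genes, lists and tests were chosen with earlier results of these data known. The text names the 10 genes, up to 3 genes of a list with the highest mean CPM, the 10 genes most like the class II mean and, where it says so, genes picked with their values in view.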

Additional observations from a re-analysis of the deposited data

Results flagged for a closer look

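Each value here stands apart from the other 3 mice of its group, with a gap to its nearest neighbour that is a large part of the group's range. H2-Aa in doxorubicin 2 was at 212 CPM, with a gap of 0.897 of the range, and the same mouse had the highest H2-Ab1, H2-Eb1, H2-DMb1, H2-Oa, Cd74, Ciita, Cd80 and Cd86 of its group. Cd74 in vehicle 4 was at 215 CPM, with a gap of 0.847 of the range, while H2-DMb1, Cd80 and Cd86 were lowest of the vehicle group in that mouse. Chance flags about 1 in 20 such groups.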

How the results depend on the processing

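None of the 10 genes passed an adjusted p of 0.05 in edgeR, DESeq2 or limma-voom under any setting run, or 0.1 in edgeR. Over all genes, the count of 0 became 29 with DESeq2 and 1 with no filter on low counts, and 913 genes had an unadjusted p under 0.05. The median log2 difference of the 10, -0.25, lay between -0.295 and -0.234 over the settings with all mice, and between -0.357 and -0.187 with a mouse left out. With a mouse left out, the difference of Ciita ran from -0.203 to 0.0979 and that of H2-Oa from -0.254 to 0.0467, and the other 8 kept their direction. Over all the settings run, that of Cd80 ran from -1.03 to -0.658, with adjusted p no lower than 0.161. The number of pairs that passed for r, 8, was 5 with group means subtracted and between 2 and 12 with a mouse left out. The 2 relations with marker lists that passed for r became 0 whichever mouse was left out. Their number was 2 without Cox6a2, a setting chosen after seeing the data. With the longest transcript as length, 5 genes kept their rank. Same-numbered mice did not deviate together in all pairs (correlations between -0.232 and 0.4). For numbers 1 (0.294) and 3 (0.4) the 2 mice were each other's best match, and for numbers 2 and 4 they were not. This check cannot settle whether the numbers pair mice. The labels do not say that they do, so the numbers are not taken as pairs. With the replicate block the median was -0.234 and 0 genes passed. Depth limits H2-Oa most, with 50 counts in its lowest library.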
